A study of Mus musculus with 6 samples.

Results

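The transcription factors CREB, CREM and ATF1, the CRTC coactivators, the acetyltransferases CBP and p300, and the kinases SIK1 and SIK2 form the nuclear arm of cyclic AMP signalling. Their 10 genes were taken by symbol from a table of 20896 transcripts, 1 per gene: Creb1, Crem, Atf1, Crtc1, Crtc2, Crtc3, Crebbp, Ep300, Sik1 and Sik2. All 10 were found and all 10 passed the filter on low reads. The samples were clonal lines of mpkCCD, a mouse line of the kidney cortical collecting duct: 3 clones whose label is PKA dKO, a double knockout of protein kinase A (PKA), and 3 control clones, with 1 RNA library per clone. Every clone of both groups had been grown on permeable membranes for 4 days with 2% serum, insulin, dexamethasone, triiodothyronine, epidermal growth factor, selenite and transferrin. Each was then kept for 3 days without serum or those hormones in 0.1 nM dDAVP, an agonist of the vasopressin V2 receptor, which raises cyclic AMP. The comparison asks whether mRNA of these genes differs in PKA dKO clones under dDAVP; libraries without dDAVP were not analysed here. As known for this study, the edited genes are those of the PKA catalytic subunits, Prkaca and Prkacb, though the labels do not name them.

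When cyclic AMP releases the catalytic subunits of PKA, these phosphorylate CREB and its relatives CREM and ATF1 on a serine that then binds CBP or p300. PKA also phosphorylates the SIK kinases, which otherwise keep the CRTC coactivators phosphorylated and bound by 14-3-3 proteins in the cytoplasm. Inhibited SIKs let the CRTCs lose that phosphate, with the help of calcineurin, and enter the nucleus to join CREB on its DNA element, the cyclic AMP response element (CRE). These steps act on proteins already made, so the mRNA levels below do not measure them. In many cells Crem (through its short repressor product ICER) and Sik1 are themselves induced by CREB.

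The PKA sites are shown first, because they are where the kinase absent by label would act on 4 of these gene products. The coding stretches are from GENCODE M21 (GRCm38), 33 bases each, with the codons of a pair of arginines and of the phosphorylated serine in capitals; they are reference sequence, not read from the clones.
Creb1: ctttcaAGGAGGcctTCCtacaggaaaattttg
Atf1: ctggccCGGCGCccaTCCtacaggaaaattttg
Sik1: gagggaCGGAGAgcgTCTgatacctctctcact
Sik2: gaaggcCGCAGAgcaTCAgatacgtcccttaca
Codons were counted from the start of the listed transcript's reading frame. For Sik1 the frame was that of the transcript's GENCODE M21 version, whose ends differ from those of the listed version. The serine is codon 119 of 327 in Creb1, 63 of 269 in Atf1, 577 of 779 in Sik1 and 587 of 931 in Sik2. Creb1 and Atf1 shared 26 of the 33 bases, and Sik1 and Sik2 shared 24. The Creb1 and Atf1 stretches each cross an exon junction, on chromosomes 1 and 15. Those of Sik1 (chr17:31847899-31847931, minus strand) and Sik2 (chr9:50898486-50898518, minus strand) lie within 1 exon each. A further site of the same spacing was found in Sik2 at serine codon 358.

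The label was checked on Prkaca, the catalytic subunit alpha gene. It had 6.65, 8.49 and 7.44 CPM, a read count scaled to library size, in PKA dKO clones 1, 2 and 3, against 133, 75.8 and 90.6 CPM in control clones 1, 2 and 3. Prkaca fell by 3.69 on the log2 scale (SE 0.20; limma adjusted p = 1.59e-05), and no PKA dKO value came near a control value. Prkacb averaged 103 ± 3.43 CPM in PKA dKO clones and 121 ± 14.7 CPM in control clones (SD, n = 3 each; log2 fold change -0.23, limma adjusted p = 0.939). The sources used here do not say where the edits lie, and mRNA level does not show whether protein is made.

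Recovered reads per library ranged from 30541578 to 38760162 in PKA dKO clones and from 28596444 to 42515838 in control clones. PKA dKO clone 3 and control clone 1 stood apart from the other 4 libraries, with no read on 2363 and 2443 transcripts against 863 to 1045. Their first principal component scores, 76.8 and 91.7, were positive and those of the other 4 negative, from -20.9 to -74.1, on the component with 68.1% of the variance. Results are therefore also given for the other 4 libraries and for PKA dKO clone 3 against control clone 1. Of 8 principal-cell markers, 6 reached 1 CPM in all 6 libraries. The list summed to 1194 to 1300.03 CPM in PKA dKO clones and 1105 to 1686 CPM in control clones. That sum does not show the fall of 1 of its markers, the water channel gene Aqp2. Aqp2 had 1.82 to 3.39 CPM in PKA dKO clones and 140 to 399 CPM in control clones. Intercalated-cell markers summed to between 18.02 and 44.5 CPM in PKA dKO clones and 24.4 to 44.1 CPM in control clones, and proximal-tubule markers to 7.18 to 9.98 CPM in PKA dKO clones and 4.87 to 8.80 CPM in control clones. Fibroblast, leukocyte and endothelial markers stayed at or under 4.40 CPM in sum in PKA dKO clones and 5.53 CPM in control clones, with no marker at 0 everywhere. Of the 4 proximal-tubule markers 1 reached 1 CPM in all libraries, as did 1 of 6 intercalated-cell markers; the part of such cells in any result was not tested, and in bulk RNA fewer cells of a type cannot be told apart from less RNA per cell.

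None of the 10 genes differed between PKA dKO and control clones by the test. The test (limma-trend on log2 scaled reads, Benjamini-Hochberg adjustment over 16683 transcripts) called 28 transcripts in all, 0.168% of those tested, and 0 of the 10. At an unadjusted p under 0.05 it again found 0 of the 10, against 6.24% of all tested, and edgeR's quasi-likelihood test, DESeq2 and limma-voom each called 0 of the 10. In none of the 10 were the groups free of overlap, against 10.8% of all transcripts tested. Creb1 had a positive log2 fold change, 0.17, and the other 9 had negative ones, between -0.08 and -0.26, none past the threshold; the signs of Crem, Crtc1, Crtc3 and Atf1 turned in at least 1 alternative, as given with each gene. Their median was -0.20, against -0.0015 over all transcripts tested, of which 50.2% were negative. The 95% intervals of all 10 fold changes lay within 2-fold in either direction, and those of Creb1, Atf1, Crtc2, Crtc3, Crebbp and Ep300 within 1.5-fold. Adjusted p-values ran from 0.988 for Sik2 to 1.00.

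**Figure D1:**
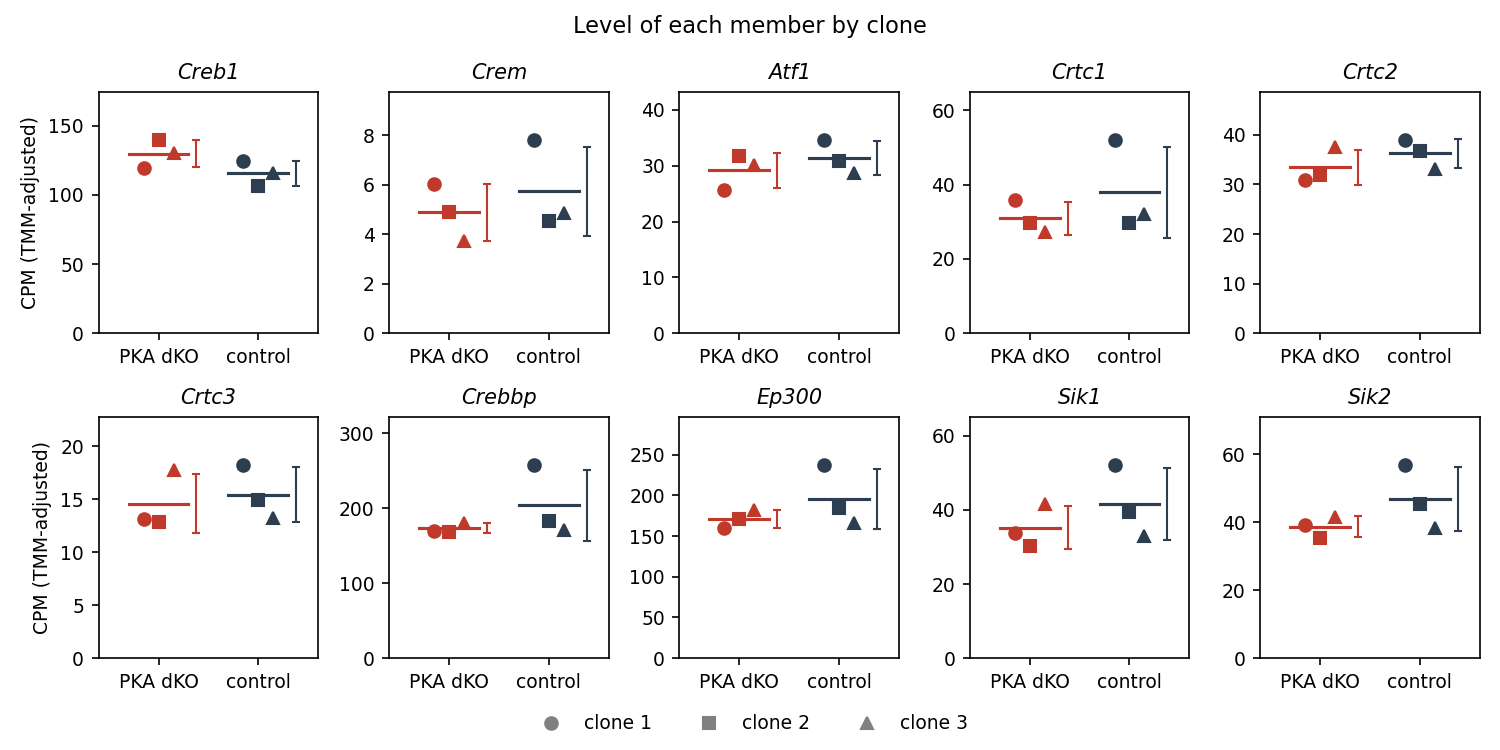
Level of each of the 10 genes in CPM (linear axes from 0) in the 3 PKA dKO clones and the 3 control clones; symbols are single clones, horizontal lines are means and bars are ± 1 SD. The groups overlap in every panel, and control clone 1 (dark circle) is the highest library in 9 of them.

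Among the CREB factors, Creb1 encodes CREB, the factor that gives the family its name. The gene (ENSMUSG00000025958.14, chromosome 1, 64532819 to 64604548, plus strand, 8 exons) had 119.8, 139.5 and 130.3 CPM in PKA dKO clones 1, 2 and 3, against 124, 106 and 116 CPM in control clones 1, 2 and 3. PKA dKO clones 2 and 3 lay above every control clone, while PKA dKO clone 1 lay between the controls. The log2 fold change was 0.17 (SE 0.12, 95% interval -0.10 to 0.44; limma adjusted p = 1.00), so a rise above 1.36-fold or a fall below 0.930 of control lies outside the interval. Creb1 stood at 0.23 within the 4 libraries and at 0.07 in PKA dKO clone 3 against control clone 1.

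Crem encodes both activators and, from an internal promoter, the repressor ICER. It (ENSMUSG00000063889.16, chromosome 18, 3266356 to 3337589, minus strand, 9 exons) had 6.05, 4.91 and 3.73 CPM in PKA dKO clones, against 7.80, 4.55 and 4.88 CPM in control clones. These values rest on 133 to 243 reads in PKA dKO libraries and 139 to 282 reads in control libraries. Its log2 fold change of -0.21 (SE 0.30) had the widest interval of the 10, from -0.86 to 0.44, and its sign turned, to 0.21 within the 4 libraries and to 0.031 without control clone 1. Clone 3 of the PKA dKO group was the lowest library and control clone 1 the highest, and the difference between that pair was -1.05 on the log2 scale. The table lists 1 Crem transcript of 2759 bases, so ICER is not measured apart from the longer forms.

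Atf1 encodes ATF1, the close relative of CREB that can pair with it. The gene (ENSMUSG00000023027.13, chromosome 15, 100227819 to 100261244, plus strand, 7 exons) had 25.7, 31.7 and 30.1 CPM in PKA dKO clones, against 34.5, 30.9 and 28.6 CPM in control clones. PKA dKO clone 1 alone lay below all controls, and the log2 fold change was -0.10 (SE 0.15, interval -0.43 to 0.22; limma adjusted p = 1.00). Atf1 shares chromosome 15 with Ep300 and with 8 of the 28 transcripts called, Aqp2 among them. The share of all tested transcripts on that chromosome is not given here, so this count cannot be weighed. Over the tested genes of chromosome 15, the median deviation of a library from the mean of all 6 was -0.04, -0.05 and -0.06 in PKA dKO clones 1, 2 and 3, against -0.02, 0.18 and 0.09 in control clones 1, 2 and 3 (log2 scale). With each library's chromosome medians removed, the fold change of Atf1 was 0.026.

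The CRTC genes encode the coactivators that SIKs hold in the cytoplasm. Crtc1 (ENSMUSG00000003575.13, chromosome 8, 70382355 to 70439579, minus strand, 14 exons) had 35.8, 29.7 and 27.3 CPM in PKA dKO clones, against 51.9, 29.8 and 32.1 CPM in control clones. The high control mean came from control clone 1, and the log2 fold change of -0.26 (SE 0.21, interval -0.72 to 0.20) turned to 0.08 within the 4 libraries. Chromosome 8 genes had a median deviation of 0.20 in control clone 1 and -0.19 in control clone 2, and Crtc1 stood at -0.23 once chromosome medians were taken off.

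Crtc2 (ENSMUSG00000027936.18, chromosome 3, 90254163 to 90264125, plus strand, 14 exons), the family member best known from glucose production in liver, had 31.0, 31.8 and 37.5 CPM in PKA dKO clones, against 38.9, 36.7 and 33.2 CPM in control clones. PKA dKO clones 1 and 2 lay below all control clones and PKA dKO clone 3 among them (log2 fold change -0.12, SE 0.14, interval -0.43 to 0.19). Crtc3 (ENSMUSG00000030527.15, chromosome 7, 80586627 to 80688877, minus strand, 15 exons) had 13.1, 12.9 and 17.8 CPM in PKA dKO clones, against 18.2, 14.9 and 13.2 CPM in control clones. It had the smallest difference of the 10, -0.08 (SE 0.20, interval -0.52 to 0.35), and turned to 0.045 without control clone 1. Its 2 highest values were those of PKA dKO clone 3 and control clone 1.

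CBP and p300 are large acetyltransferases that bind phosphorylated CREB and many other factors. Crebbp, the CBP gene (ENSMUSG00000022521.10, chromosome 16, 4081328 to 4213997, minus strand, 31 exons), had 170.0, 169 and 181 CPM in PKA dKO clones, against 258, 183 and 171 CPM in control clones. Ep300 (ENSMUSG00000055024.12, chromosome 15, 81585397 to 81652077, plus strand, 31 exons) had 159.9, 171 and 182 CPM in PKA dKO clones, against 237, 184 and 166 CPM in control clones. Control clone 1 was again the highest for both, and the PKA dKO clones were closer to one another, with SDs of 6.73 and 10.8 CPM against 47.1 and 37.2 CPM in control clones for Crebbp and Ep300. Log2 fold changes were -0.21 for Crebbp (SE 0.16, interval -0.56 to 0.14) and -0.18 for Ep300 (SE 0.15, interval -0.51 to 0.15). Within the 4 libraries they were -0.05 and -0.07, and with chromosome medians removed -0.24 and -0.05. Without control clone 1 they were -0.026 and -0.028, and without control clone 3 they were -0.33 and -0.29.

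SIK1 and SIK2 are the salt-inducible kinases that PKA inhibits. Sik1 (ENSMUSG00000024042.7, chromosome 17, 31844248 to 31855792, minus strand, 14 exons), a CREB target in many cells, had 33.7, 30.3 and 41.6 CPM in PKA dKO clones, against 52.1, 39.5 and 33.0 CPM in control clones. Its log2 fold change was -0.23 (SE 0.19, interval -0.64 to 0.19; limma adjusted p = 1.00). A level in PKA dKO clones under 0.643 of control thus lies outside the interval. Without control clone 1 the fold change of Sik1 was -0.046, and without control clone 3 it was -0.38. Sik2 (ENSMUSG00000037112.16, chromosome 9, 50892801 to 51009073, minus strand, 16 exons) had 39.1, 35.3 and 41.6 CPM in PKA dKO clones, against 56.8, 45.2 and 38.2 CPM in control clones. It had the lowest p of the 10 (unadjusted p = 0.141, limma adjusted p = 0.988), with a log2 fold change of -0.26 (SE 0.16, interval -0.61 to 0.10) and 1 PKA dKO clone below all control clones. That of Sik2 was -0.10 without control clone 1 and -0.39 without control clone 3.

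**Figure D2:**
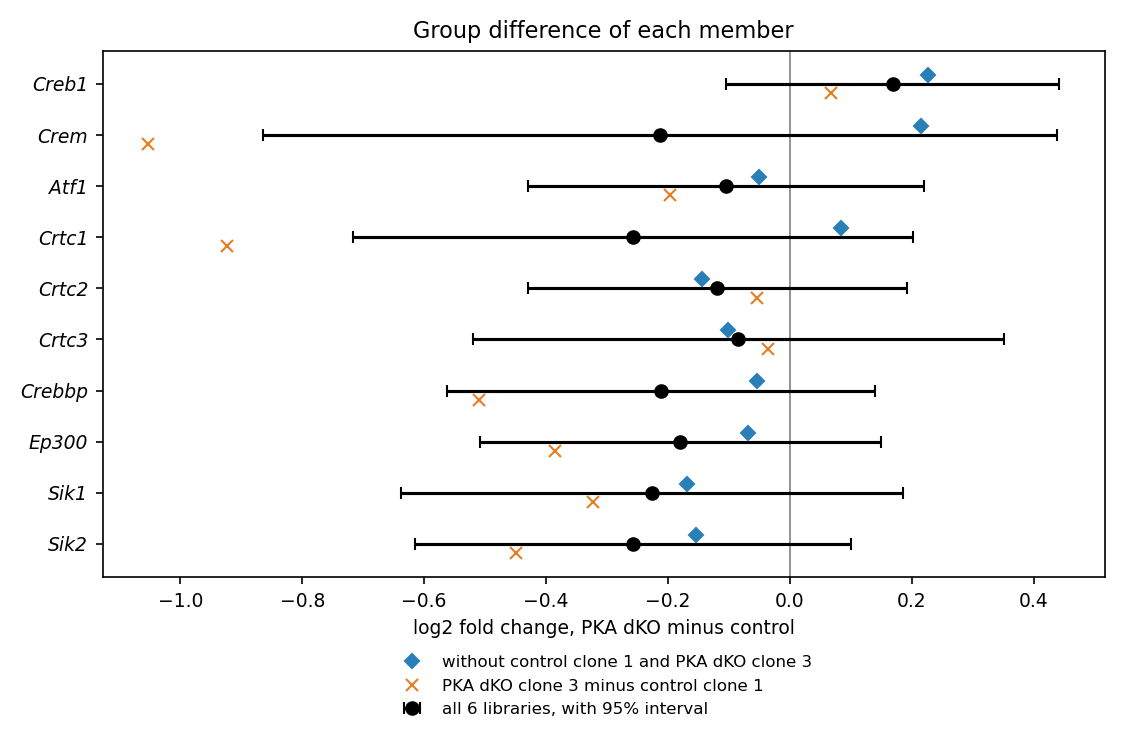
Log2 fold change of each gene, PKA dKO minus control (x axis), from all 6 libraries with its 95% interval (black), from the 4 libraries without control clone 1 and PKA dKO clone 3 (blue diamonds), and between those 2 libraries alone (orange crosses, no test). Every interval includes 0; for Crem and Crtc1 the crosses lie at -1.05 and -0.92 and the diamonds at 0.21 and 0.08.

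The pair of libraries that stood apart entered these differences directly. Control clone 1 held the highest value of 9 of the 10 genes, all but Creb1, against 26.0% of all transcripts tested. Between PKA dKO clone 3 and control clone 1 alone, 9 of the 10 differences were negative, with a median of -0.35 against 0.01 over all tested. Within the 4 other libraries 7 of the 10 were negative and the median was -0.06, against -0.01 over all transcripts tested. That fit called 3.0% of its 17252 transcripts but none of the 10, whose lowest adjusted p there was 0.590 (limma).

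The authors' deposited table, made with edgeR, lists 10190 transcripts with 354 at a false discovery rate under 0.05. It holds all 10 genes and calls none of them. Its log2 fold changes, PKA dKO against control, run from -0.29 for Sik2 and Crtc1 to 0.15 for Creb1, and its lowest false discovery rate among them is 0.447, for Sik2, in the authors' deposited table.

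Levels of different genes were compared per transcript length, with the deposited FPKM values and within each library, since the library totals behind FPKM differ. Creb1 was highest in 5 of 6 libraries, at 8.39 to 11.9 FPKM in PKA dKO clones and 6.81 to 10.7 FPKM in control clones. Ep300 followed, above Creb1 in control clone 1 only, and was above Crebbp in 6 of 6 libraries by 1.04 to 1.15 times. Crebbp was above Crtc2 in all 6. Crtc2, Atf1 and Sik2 came next and changed places between libraries, Crtc2 being above Atf1 in 4 of 6 and Atf1 above Sik2 in 4 of 6, so their order is not settled. Below them Sik1, Crtc1, Crtc3 and Crem kept 1 order in all 6 libraries. Crem was lowest throughout, at 0.606 to 0.933 FPKM in PKA dKO clones and 0.573 to 1.34 FPKM in control clones.

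Within each subfamily the shares of FPKM differed between the groups by at most 4.74 percentage points. Creb1 made up 63.9 ± 1.24% of the Creb1, Crem and Atf1 total in PKA dKO clones and 59.2 ± 2.70% in control clones (SD, n = 3 each). Single clones had 64.2, 62.5 and 65.0% in the PKA dKO group, against 57.7, 57.5 and 62.3% in the control group. The groups did not overlap, and the difference of 4.74 percentage points had an exact two-sided permutation p of 0.10, the smallest that 3 against 3 allows, and 0.80 after adjustment over the 8 shares tested. Atf1 made up 31.4 ± 1.65% in PKA dKO clones and 35.2 ± 2.43% in control clones (exact permutation p = 0.20), and Crem 4.68 ± 1.37% and 5.68 ± 1.33% (exact permutation p = 0.40).

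Of the CRTC total, Crtc2 held 59.5 ± 3.13% in PKA dKO clones and 58.2 ± 4.84% in control clones. Crtc1 held 26.6 ± 4.67% in PKA dKO clones and 28.6 ± 4.88% in control clones, and Crtc3 13.8 ± 1.72% and 13.1 ± 0.42%. Crebbp was 47.3 ± 1.03% of the summed CBP and p300 FPKM in PKA dKO clones and 47.8 ± 1.12% in control clones. Sik1 was 41.5 ± 2.13% of the summed Sik1 and Sik2 FPKM in PKA dKO clones and 41.0 ± 0.74% in control clones. None of these 5 shares had an exact permutation p under 0.60, and the sign of each difference turned in at least 1 setting with libraries left out.

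**Figure D3:**
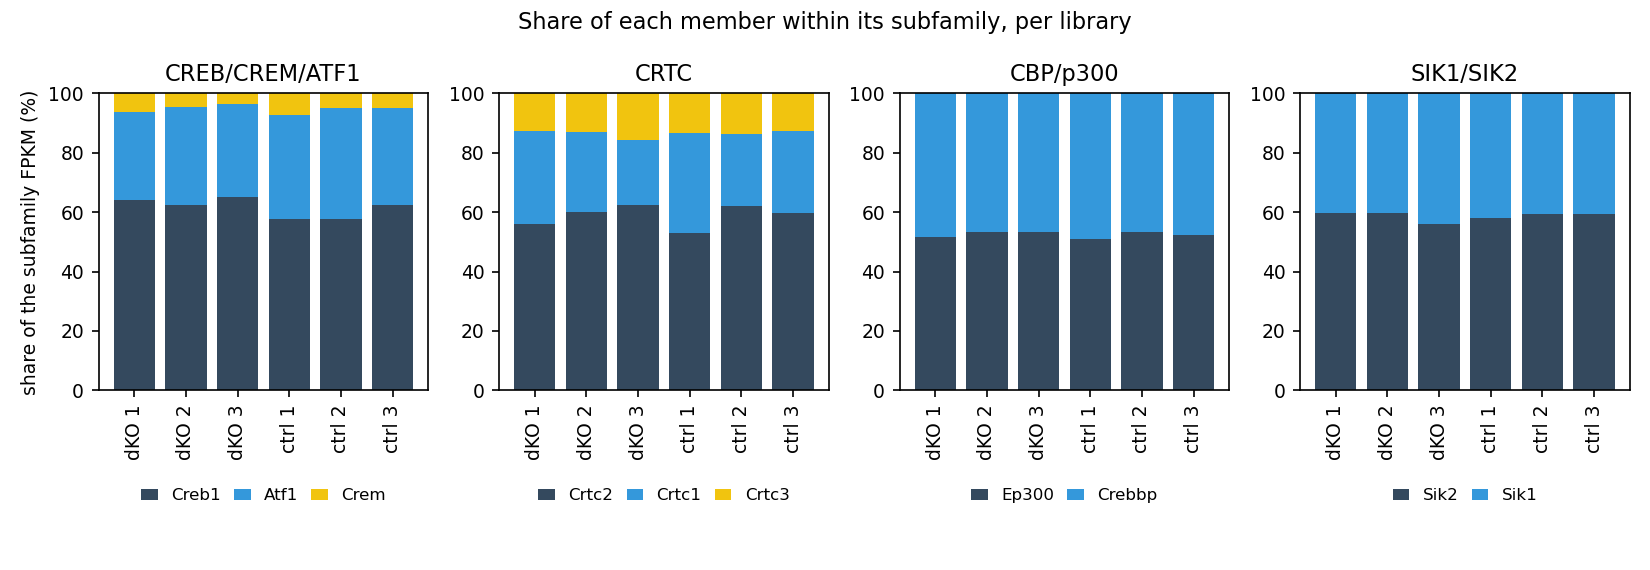
Share of each gene in the summed FPKM of its subfamily (y axis, %) in each library, PKA dKO clones left and control clones right. Creb1, Crtc2, Ep300 and Sik2 hold the main share in all 6 libraries; the share of Creb1 is 62.5 to 65.0% in PKA dKO clones and 57.5 to 62.3% in control clones.

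Promoters were searched for the CRE, to which the CREB factors bind. RefSeq windows (GRCm38.p6) of 300 bases, from 250 before to 50 after the RefSeq gene start, were used for 7 of the 10 genes. Crem, Crtc2 and Sik1 were not searched. The counts below therefore do not cover Crem and Sik1, the members that CREB induces in many cells. The RefSeq start need not be that of the transcript measured. The window holds the start of the listed transcript for 5 of the 7, but for Ep300 and Crebbp the RefSeq start lies 817 and 593 bases downstream, so the region before their listed starts was not searched. The full element TGACGTCA, which reads the same on both strands, was in none of these 7 windows and in 1.79% of 32851 windows. The core TGACG, or CGTCA on the other strand, which is also contained in the full element, was in 2 of the 7, Sik2 and Atf1, and in 20.8% of all windows. The stretches are shown with the core in capitals, 5′ to 3′ on the gene's strand.
Sik2: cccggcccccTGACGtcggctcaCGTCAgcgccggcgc
Atf1: gaccacgcggTGACGcagcacgccg
The Sik2 stretch (chr9:51009047-51009084, minus strand) spans the start, which is the same in RefSeq and in the listed transcript, and holds the core in both orientations. The Atf1 stretch (chr15:100227759-100227783, plus strand) has it 86 to 90 bases before the RefSeq start (100227859), which is 46 to 50 bases before the start of the listed transcript. The log2 fold changes of these genes, -0.26 for Sik2 and -0.10 for Atf1, did not pass the test. A match describes these letters and no more; binding was not measured.

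Other genes that act with these factors were described by lists, each beside the 0.168% of all transcripts called. Of 14 tested relatives in the wider CREB and ATF bZIP family, none was called, 7 had positive and 7 negative fold changes, and the median was 0.02. Atf5, a stress-induced relative of ATF4, had the lowest p of that list, at 30.7 ± 7.15 CPM in PKA dKO clones and 48.1 ± 8.32 CPM in control clones (log2 fold change -0.66, SE 0.19; limma adjusted p = 0.365). All 3 PKA dKO values lay below the control values, and within the 4 libraries Atf5 passed (limma adjusted p = 0.00611, the lowest of 21 alternatives, which ran up to 1.00).

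LKB1 switches on SIKs and their relatives, with the scaffold protein MO25. Of 15 tested genes of this complex and of its other target kinases none was called, with a median of -0.0054. Stk11, the gene of LKB1 itself, was not among the genes tested. The third salt-inducible kinase, Sik3, had 35.9, 33.1 and 38.2 CPM in PKA dKO clones, against 56.8, 47.5 and 40.5 CPM in control clones, so all 3 PKA dKO clones lay below all control clones. Its log2 fold change was -0.42 (SE 0.15, interval -0.76 to -0.09), and it did not pass (unadjusted p = 0.0182, limma adjusted p = 0.570). Over the 21 alternatives the adjusted p of Sik3 was 0.205 or higher. The authors' deposited edgeR comparison gave -0.45 for Sik3 with a false discovery rate of 0.0699, also not under 0.05. The gene with the lowest p in the list was Cab39l, a MO25 gene, with 103, 103 and 83.5 CPM in PKA dKO clones, against 189.9, 124 and 117 CPM in control clones (limma adjusted p = 0.486). Its log2 fold change was -0.55 with all 6 libraries, -0.22 within the 4 libraries and -0.34 with chromosome medians removed. Between PKA dKO clone 3 and control clone 1 it was -1.19. Cab39l lies on chromosome 14, whose median deviation was -0.44 in PKA dKO clone 3 and 0.28 in control clone 1.

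Proteins that add, remove or read the phosphates of CREB and the CRTCs, and activators of such kinases, gave no called gene with all 6 libraries. Tested were 16 genes of CREB kinases other than PKA and of kinases that activate them (median 0.07). The other lists held 4 phosphatase genes (0.15), 9 calcineurin genes (0.02) and 7 genes of 14-3-3 proteins (0.11). The lowest p in the kinase list belonged to Camkk1, an activator of calmodulin kinases (log2 fold change 0.44, limma adjusted p = 0.987). In the calcineurin and 14-3-3 lists it belonged to the calcineurin subunit gene Ppp3cc (-0.44, limma adjusted p = 0.740) and the 14-3-3 gene Ywhaz (-0.34, limma adjusted p = 0.677). The log2 fold change of Camkk1 was 0.12 without control clone 2. That of Ppp3cc was -0.15 within the 4 libraries, -0.23 without PKA dKO clone 3 and -0.23 with chromosome medians removed, and Ywhaz stood at -0.21 in the last of these settings. Another calcineurin subunit gene, Ppp3cb, named after its values were seen, had 54.4 ± 10.5 CPM in PKA dKO clones and 43.3 ± 13.7 CPM in control clones (log2 fold change 0.36; limma adjusted p = 0.971). It passed within the 4 libraries (0.78, limma adjusted p = 0.00108, the lowest of 21 alternatives, which ran up to 1.00).

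Among 13 partners of CBP and p300 and other acetyltransferases none was called (median -0.02), with the lowest p for Cited4, which binds CBP and p300. It had 18.2 ± 5.64 CPM in PKA dKO clones and 27.5 ± 5.14 CPM in control clones (log2 fold change -0.62; limma adjusted p = 0.573), and it passed within the 4 libraries (-0.99, limma adjusted p = 5.91e-04, in a range up to 1.00 over 21 alternatives). Class IIa histone deacetylases are further SIK substrates, kept out of the nucleus when phosphorylated, and they repress MEF2 factors. Of 8 tested genes of these families none was called (median -0.17), with 3 positive and 5 negative fold changes. The groups did not overlap for 1 gene that was higher and 2 that were lower in PKA dKO clones, against 10.8% of all transcripts tested. Hdac5 had the lowest p, with 79.9, 61.1 and 83.6 CPM in PKA dKO clones, against 45.3, 50.4 and 44.6 CPM in control clones. All 3 PKA dKO values lay above the controls, with a log2 fold change of 0.67 (SE 0.15, interval 0.34 to 0.99; limma adjusted p = 0.161). Hdac5 passed with DESeq2 (adjusted p = 0.00847) and, with limma, within the 4 libraries (adjusted p = 0.0321), in a range of 0.00847 to 1.00 over 21 alternatives.

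Of 21 tested genes listed here as CREB targets, 2 were called, both lower. Negative fold changes were found for 17 of 21 (median -0.24), against 50.2% of all transcripts tested. The list was chosen with earlier results of these data known, so its calls are no independent result, and CREB binding was not measured. The called genes were Aqp2, the vasopressin-regulated water channel (2.64 ± 0.78 CPM in PKA dKO clones and 232 ± 145 CPM in control clones), and Pde4b, a phosphodiesterase of cyclic AMP (0.39 ± 0.16 and 10.8 ± 0.69 CPM). Their log2 fold changes were -6.30 (SE 0.35; limma adjusted p = 1.59e-05) and -4.66 (SE 0.38; limma adjusted p = 5.40e-04). The highest fold change of the list was that of Ppargc1a, a coactivator gene of mitochondrial metabolism, named after its values were seen. It had 58.5 ± 28.3 CPM in PKA dKO clones and 27.98 ± 15.5 CPM in control clones, with overlapping groups, and did not pass (log2 fold change 1.14, SE 0.42; unadjusted p = 0.0205, limma adjusted p = 0.598). Crem and Sik1, which CREB induces in many cells, had log2 fold changes of -0.21 and -0.23. Whether CREB acted on any of these genes in these clones was not tested.

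**Figure D4:**
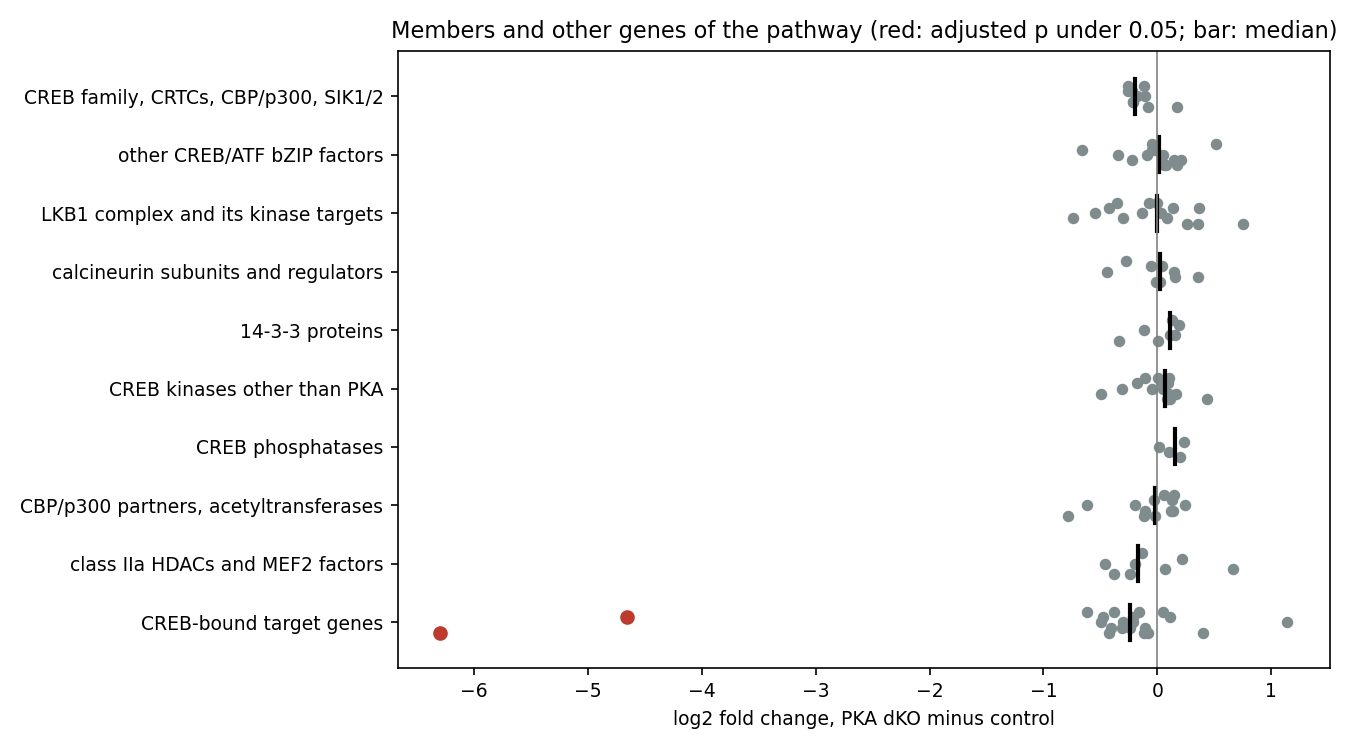
Log2 fold change, PKA dKO minus control (x axis), of the 10 genes (top row) and of each list of other pathway genes; points are genes, red where the limma adjusted p was under 0.05, and black bars are list medians. The red points are Aqp2 at -6.30 and Pde4b at -4.66; the 10 genes lie between -0.26 and 0.17.

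The genes most like Crem and Sik1 over the 6 libraries were found by the root mean square difference of centred log2 levels, among transcripts with a mean of at least 5 CPM. For Crem, whose own values deviated from their mean by 0.33, they were Tulp3 (0.06), Sema3f (0.09) and Paqr8 (0.09). For Sik1, with a deviation of 0.26, they were Leng8 (0.04), Fnip2 (0.05) and Pik3cb (0.05). None of the 6 was called between the groups (limma adjusted p = 1.00 each).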

How the data were processed

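RNA was depleted of ribosomal RNA from 262 ng per sample and made into stranded libraries, per the labels' protocols. STAR 2.5.2a, SAMtools, HOMER 4.8, edgeR and GRCm38.p5 are named in the submitters' processing notes, without their roles; the sources used here do not say how strand and reads mapping to several places were counted. The read columns, headed as counts, are a signal that the authors scaled to a common total. Dividing by each library's step gave whole reads for 100% of values (tolerance 0.01 scaled reads). FPKM are the deposited values. The reads in the table are 48.1% and 48.7% of the library totals they imply in PKA dKO clone 3 and control clone 1. In the other 4 libraries they are 31.7% to 39.9%. The authors' comparison table, as deposited, gives edgeR log2 fold changes with p-values and false discovery rates.

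Scaled reads were divided by TMM factors (0.909 to 1.07, from edgeR 4.0.16), 1 scaled read was added as pseudocount, and log2 values were tested with limma-trend (version 3.58.1 under R 4.3.3). Fold changes of low genes are therefore understated. The filter filterByExpr (minimum 10 reads, total 15) kept 16683 transcripts. All 6 libraries entered with group as the only term; p-values were adjusted over all tested transcripts with 0.05 as threshold. On recovered reads, edgeR's quasi-likelihood test called 28 transcripts. CPM used recovered reads and TMM factors. Clones are separate lines with 1 library each, so p-values weigh clonal, culture and library spread together. On simulated data false calls made up well over the threshold's share of all calls, and most 1.5-fold changes were not called. The simulated libraries were drawn independently, without the split between libraries seen in the data. Coordinates and exons are of GRCm38, from the deposited table and GENCODE M21. For Sik1 the ends of the transcript differ between these sources. Genes named were the 10 members, Prkaca, Prkacb, Sik3, the genes called in each list or its gene of lowest p, and the 3 nearest genes to Crem and to Sik1. The gene that this rule gives for the phosphatase list is not reported here. Members and lists were chosen with earlier results of these data known. Listed genes not in the table were not analysed here. Alternatives covered pseudocount, filter, scaling, tool, FPKM, libraries left out, the split of libraries, chromosome medians and the replicate block. Clone numbers were not taken as pairing the samples.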

Additional observations from a re-analysis of the deposited data

How the results depend on the processing

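None of the 10 genes passed under any of 21 alternatives, and 205 of their 210 values kept their sign. The exceptions were Crem (0.21 within the 4 libraries; -0.38 to 0.031 with 1 library left out), Crtc1 (0.083 within the 4 libraries), Atf1 (0.026 with chromosome medians removed) and Crtc3 (-0.23 to 0.045 with 1 library left out); the cause was not tested. The log2 fold change of Creb1 stayed between 0.11 and 0.23. The count over all transcripts, 28, was 17 without TMM factors, 209 with DESeq2, 93 with FPKM, 71 with a term for the libraries that stood apart, 518 within the 4 libraries and 11 to 146 with 1 library left out (146 without control clone 1, 47 without PKA dKO clone 3, 13 without PKA dKO clone 1 and 11 without PKA dKO clone 2). With the replicate block it was 196. Same-numbered clones did not all deviate together (correlations of -0.357, 0.639 and -0.339 for clones 1, 2 and 3), and not every clone correlated best with its own number. The highest correlation, 0.663, was that of PKA dKO clone 3 with control clone 1, the libraries that stood apart. These correlations cannot be told apart from that split, so they do not decide whether clone numbers pair the samples. List genes called, 2, were 5 with the replicate block and 6 within the 4 libraries. With the block Atf5, Hdac5 and Ppargc1a passed besides Aqp2 and Pde4b (limma adjusted p = 0.0325, 0.039 and 0.00132).

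FPKM shares within subfamilies changed the sign of their small differences, in percentage points, within the 4 libraries: 0.41 for Crem, 3.05 for Crtc1, -2.80 for Crtc2, -0.25 for Crtc3, 0.26 for Crebbp and -0.27 for Sik1. With 1 library left out the ranges that crossed 0 were -4.25 to 0.65 for Crtc1, -1.39 to 3.30 for Crtc2, -0.30 to 1.27 for Crtc3, -1.13 to 0.043 for Crebbp and -0.69 to 1.20 for Sik1, while Creb1 stayed at 3.94 to 6.30. Depth bears most on Crem, with as few as 133 reads in a library.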
